A study of Mus musculus with 6 samples.

Results

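The 10 genes described here take iron into the cell, store it, release it or sense it. They were chosen by symbol, as iron handling genes around the transferrin receptor with a bearing on ferroptosis, and are Tfrc, Slc11a2, Slc40a1, Fth1, Ftl1, Ireb2, Aco1, Ncoa4, Steap3 and Hmox1. All 10 were found among the 17577 genes listed for each library. The libraries came from germinal vesicle (GV) oocytes, immature oocytes held in meiotic prophase, of 12-week-old C57BL/6 J mice, and 3 libraries of Bnc1tr/tr mice were compared with 3 of wild-type (WT) mice. Bnc1tr/tr mice carry, in every cell of the body, 2 copies of a frameshift allele that shortens basonuclin 1, a zinc finger protein of germ cells and keratinocytes, so that a difference in the oocyte need not start in the oocyte. By the study's methods both genotypes were primed with pregnant mare serum gonadotropin, littermates were compared, and the cDNA of a single oocyte was amplified for each library. Each library is labelled as a separate sample, and where oocytes of a group came from the same mouse the p-values below measure only the spread between these samples. Levels are FPKM, that is, fragments scaled to a transcript length in kilobases and to the M (mega) of fragments mapped, so each is a share of its library, and more RNA of a gene per oocyte cannot be told apart from less RNA of the others.

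Iron bound to transferrin is taken up through the transferrin receptor, reduced in the endosome and moved to the cytosol, where what is not used is kept in ferritin or leaves through ferroportin. The supply is sensed by the iron regulatory proteins IRP1 and IRP2. When iron is scarce they bind a stem-loop, the iron-responsive element, which in the 5′ untranslated region (UTR) of an mRNA blocks its translation and in the 3′ UTR of the receptor mRNA protects it from decay. Free ferrous iron drives the lipid peroxidation of ferroptosis, which gives these genes their interest in oocytes.

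The elements are shown because binding to them is how the iron regulatory proteins act on several of these mRNAs. A search of GENCODE M21 transcripts (GRCm38) for the letters CNNNNNCAGTGN on the transcript strand, with the 5 bases before the loop able to pair with the 5 after it, found a match in the UTRs of 4 of the 10 members, against 160 of 21877 genes with a protein-coding transcript (0.731%). In the 29-base windows below, read 5′ to 3′ along the transcript, capitals mark the bulged C and the 6-base loop.
Tfrc 3′ UTR, chr16:32631219-32631247, + strand: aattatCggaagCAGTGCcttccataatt
Tfrc 3′ UTR, chr16:32631598-32631626, + strand: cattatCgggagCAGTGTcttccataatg
Tfrc 3′ UTR, chr16:32631663-32631691, + strand: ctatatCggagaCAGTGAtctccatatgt
Tfrc 3′ UTR, chr16:32631710-32631738, + strand: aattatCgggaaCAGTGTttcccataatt
Fth1 5′ UTR, chr19:9982732-9982760, + strand: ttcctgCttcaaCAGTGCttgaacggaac
Ftl1 5′ UTR, chr7:45459779-45459807, - strand: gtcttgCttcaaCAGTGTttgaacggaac
Slc40a1 5′ UTR, chr1:45925465-45925493, - strand: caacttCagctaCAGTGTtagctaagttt
Each window lies within 1 exon. The 4 Tfrc windows share the loop CAGTGN but differ in the stem, and the Fth1 and Ftl1 windows share the stem on both sides of the loop. The other 6 members held no such letters in the UTRs searched. They include Slc11a2, which is known for an element in the 3′ UTR of some of its transcripts that departs from this pattern, so the letters do not tell bound from unbound mRNAs, and a match is a description of the sequence only.

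FPKM totals ran from 657550 to 704568 in Bnc1tr/tr and from 671768 to 724550 in WT, and depths estimated from the steps of low values ran from 13.0 to 17.4 M and from 14.9 to 21.6 M fragments. More genes were detected in the mutant, with 10682 to 11035 genes at 1 FPKM or more in Bnc1tr/tr against 9518 to 9748 in WT and 15258 to 15736 against 13896 to 14576 above 0. Tfrc, Hmox1 and Slc40a1 are among the genes with low WT levels, and the part of this difference in theirs was not tested. Bnc1 itself was at 9.04, 6.51 and 5.83 FPKM in Bnc1tr/tr and at 13.17, 12.54 and 16.23 FPKM in WT, lower in every mutant library (limma adjusted p = 0.0090). All 12 oocyte markers were detected, and their summed level was 8373 to 9086 FPKM in Bnc1tr/tr and 7134 to 11447 FPKM in WT. Within that list limma called Zp2 (-0.74, adjusted p = 0.032) and Nlrp5 (-0.62, adjusted p = 0.026) lower and Dazl (0.84, adjusted p = 0.0035) higher in the mutant. The same fit called 24.1% of all tested genes higher and 7.68% lower. Bnc1tr/tr libraries 1 and 2 also held transcripts of leukocytes, such as Lyz2 at 5.81 and 47.97 FPKM, and of red cells, such as Hba-a1 at 0.40 and 5.90 FPKM, both listed at 0 in the other 4 libraries. Calls lost without these libraries are therefore given as well. The mutant group is then library 3 alone, taken to vary as the WT libraries do. Calls fell over all tested genes in that fit, so a lost call is not particular to a gene.

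Of the 10 members, 8 reached the mean of 1 FPKM needed for the test, and 3 of those were called higher in Bnc1tr/tr: Tfrc, Fth1 and Hmox1. The WT means of Tfrc and Hmox1, 0.903 and 0.333 FPKM, were under that limit, so both could enter the test only with higher mutant levels. The count of members called lower by limma was 0, with 0 at an unadjusted p under 0.05, and the other 5 tested members did not pass. A call needed an adjusted p under 0.05 over all 10560 tested genes and a log2 fold change beyond 0.5 in either direction. The same rule called 31.8% of all tested genes, 24.1% as higher and 7.68% as lower, so the 3 of 8 members are a share near the background. In the fit without the limit of 1 FPKM, 3 of 10 members were called, against 19.4% of genes. With the limit, the median log2 fold change of the 8 tested members was 0.44, and the median over all 10560 tested genes was 0.15. The groups did not overlap for 4 of the 8 members, against 46.8% of all tested genes. The mutant group was the higher in 3 of them, against 32.7%, and the lower in 1, against 14.1%.

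**Figure D1:**
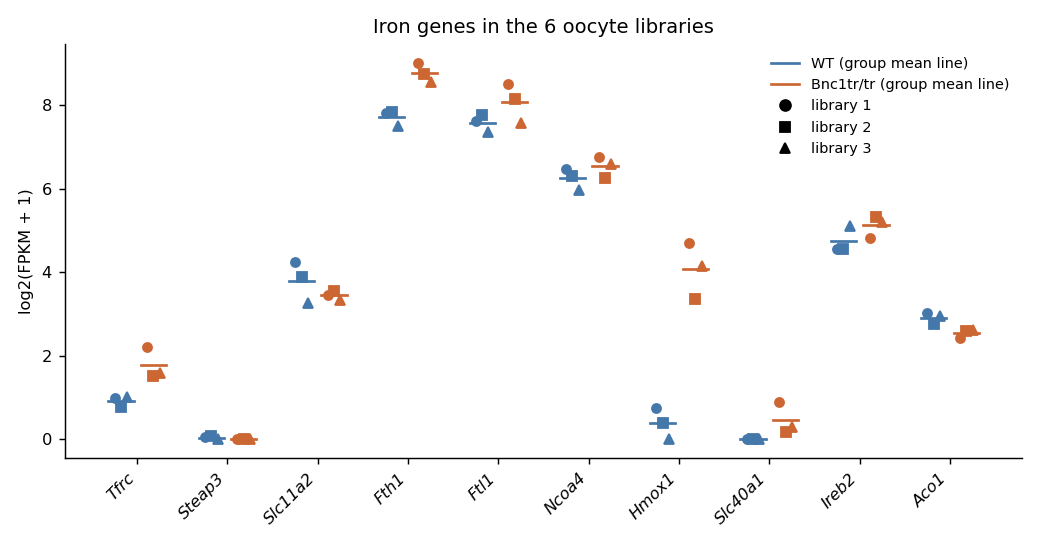
Levels of the 10 iron genes as log2(FPKM + 1), with 1 point per oocyte library, the shape giving the library number, the colour the genotype and a line the group mean. The Bnc1tr/tr and WT points are apart for Tfrc, Fth1, Hmox1 and Aco1, and Slc40a1 is above 0 in the Bnc1tr/tr libraries alone.

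Among uptake genes, Tfrc rose, Slc11a2 did not pass the test and Steap3 was too low to test. Tfrc, the transferrin receptor that carries iron-loaded transferrin into the endosome (chr16:32608920-32632794, GRCm38, + strand), was at 3.62, 1.84 and 1.99 FPKM in Bnc1tr/tr libraries 1 to 3 and at 0.98, 0.70 and 1.03 FPKM in WT. Every mutant library lay above every WT library, with mutant library 1 the highest. The means were 2.48 ± 0.987 and 0.903 ± 0.178 FPKM (SD, n = 3), a ratio of 2.75. As log2(FPKM + 1), a scale on which changes of low genes look smaller than they are, the difference was 0.84 (SE 0.22, 95% interval 0.35 to 1.33, limma adjusted p = 0.017). These low levels correspond to an estimated 146 to 221 fragments in the mutant libraries and 52.6 to 104 in WT. Such estimates cover counting error alone. The Tfrc difference did not pass after quantile normalization (0.40, adjusted p = 0.16), without WT library 2 (0.76, adjusted p = 0.071) or without Bnc1tr/tr libraries 1 and 2 (0.66, adjusted p = 0.16).

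Slc11a2, known as DMT1, moves ferrous iron out of the endosome (chr15:100387898-100425072, - strand). It was at 9.98, 10.75 and 9.08 FPKM in Bnc1tr/tr and at 17.98, 13.74 and 8.55 FPKM in WT. WT library 3 lay below the whole mutant group, so the groups overlapped, and the log2 difference of -0.35 (95% interval -0.91 to 0.22) had a limma adjusted p of 0.32. Without that library the difference was -0.62 (adjusted p = 0.033), and it was -0.62 (adjusted p = 0.047) after quantile normalization. Steap3, the ferrireductase of the endosome that is best known from red cell precursors (chr1:120190757-120272705, - strand), was nearly absent from these libraries. It was listed at 0 in the 3 mutant libraries and at 0.03, 0.05 and 0 FPKM in WT, where the highest value corresponds to an estimated 3.97 fragments, and it was not tested.

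Ferritin heavy chain rose, and ferritin light chain was higher on average without passing the test. Fth1 encodes the chain that oxidizes ferrous iron as it enters the ferritin shell (chr19:9980598-9985098, + strand). It was at 515.19, 426.19 and 374.59 FPKM in Bnc1tr/tr and at 223.52, 225.90 and 180.23 FPKM in WT. The lowest mutant library lay far above the highest WT library. The means of 439 ± 71.1 and 210 ± 25.7 FPKM (SD, n = 3) gave a ratio of 2.09 and a log2 difference of 1.06 (SE 0.19, 95% interval 0.63 to 1.48, limma adjusted p = 0.0028). By mean level Fth1 ranked 294 among all listed genes in Bnc1tr/tr and 639 in WT. The call was lost without Bnc1tr/tr libraries 1 and 2 (0.84, adjusted p = 0.12).

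Ftl1 encodes the chain that helps build the iron core (chr7:45457944-45459884, - strand). It was at 363.52, 283.01 and 189.66 FPKM in Bnc1tr/tr and at 195.19, 214.59 and 163.36 FPKM in WT. Mutant library 3 fell within the WT range, and the log2 difference was 0.50 (95% interval -0.06 to 1.06, limma adjusted p = 0.15). Without that library it was 0.75 (adjusted p = 0.039). Its order across the mutant libraries followed that of Fth1, with library 1 highest and library 3 lowest. Of the 31-base words of Ftl1 transcripts, 82.9% also occur in other genes, with the pseudogene Ftl1-ps1 first among 30 of them, so its level is uncertain where reads were shared out, while the share was 7.18% for Fth1. Both chains together made up 0.105 ± 0.0261% of the FPKM total in Bnc1tr/tr and 0.0582 ± 0.00939% in WT (SD, n = 3).

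Ncoa4, the receptor that delivers ferritin to the lysosome for iron release (chr14:32159865-32179855, + strand), was at 107.86, 75.91 and 94.52 FPKM in Bnc1tr/tr and at 87.62, 77.49 and 61.87 FPKM in WT. The groups overlapped, and the log2 difference was 0.29 (95% interval -0.17 to 0.75, limma adjusted p = 0.31). Other genes, led by Gm6768, hold 40.7% of its words, so this level is uncertain too.

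The largest difference among the members was that of Hmox1, the inducible heme oxygenase, which opens the heme ring and frees its iron (chr8:75093621-75100589, + strand). It was at 25.06, 9.27 and 16.57 FPKM in Bnc1tr/tr and at 0.69, 0.31 and 0 FPKM in WT. The mutant libraries varied among themselves, yet the lowest held an estimated 212 fragments and the highest WT library 13.9. The log2 difference was 3.68 (SE 0.33, 95% interval 2.93 to 4.44, limma adjusted p = 6.4e-05), and it was 3.75 (adjusted p = 0.014) without Bnc1tr/tr libraries 1 and 2. Hmox2, the constitutive heme oxygenase, was already abundant in both groups, at 164 ± 13.6 and 117 ± 10.2 FPKM (SD, n = 3), and missed the thresholds (0.48, adjusted p = 0.050).

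Slc40a1, ferroportin, is the only known iron exporter of mammalian cells (chr1:45908068-45926523, - strand). It was at 0.86, 0.13 and 0.22 FPKM in Bnc1tr/tr and listed at 0 in the 3 WT libraries. These mutant values correspond to an estimated 35.5, 6.97 and 12.1 fragments, and 3 fragments in the WT libraries would be 0.0440 to 0.0639 FPKM. Its mean was under the limit for the test, and in the fit without that limit, where 19.4% of genes were called, the log2 difference was 0.45 (95% interval -0.04 to 0.94, limma adjusted p = 0.17).

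The iron regulatory proteins did not pass the test in either direction. Ireb2, which encodes IRP2 (chr9:54863789-54912530, + strand), was at 27.41, 39.06 and 35.92 FPKM in Bnc1tr/tr and at 22.53, 22.38 and 33.30 FPKM in WT. WT library 3 lay within the mutant range, and the log2 difference was 0.38 (95% interval -0.11 to 0.88, limma adjusted p = 0.21). Aco1 encodes IRP1, which is a cytosolic aconitase when it holds an iron-sulfur cluster (chr4:40143081-40198338, + strand). It was at 4.38, 5.06 and 5.08 FPKM in Bnc1tr/tr and at 7.14, 5.74 and 6.76 FPKM in WT. Every mutant library lay below every WT library, but the log2 difference of -0.37 (95% interval -0.74 to 0.00) had a limma adjusted p of 0.12. Aco1 was called lower after upper-quartile scaling (-0.60, adjusted p = 0.025), median-ratio scaling (-0.55, adjusted p = 0.035) and quantile normalization (-0.73, adjusted p = 0.012), which called 34.5%, 33.0% and 33.0% of all tested genes and moved the median of all genes from 0.15 to -0.09, -0.05 and -0.09. Under these scalings the directions of the 8 tested members were as deposited. Of the 4 members with iron-responsive element letters, Tfrc with its 3′ copies and Fth1 with its 5′ copy were called higher, Ftl1 with the same 5′ stem as Fth1 did not pass, and Slc40a1 was too low to test. Of the 6 without such letters, Hmox1 alone was called, and Steap3 was too low to test. Over all tested genes 31.8% were called and 24.1% called higher, and a link between the letters and the calls was not tested.

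**Figure D2:**
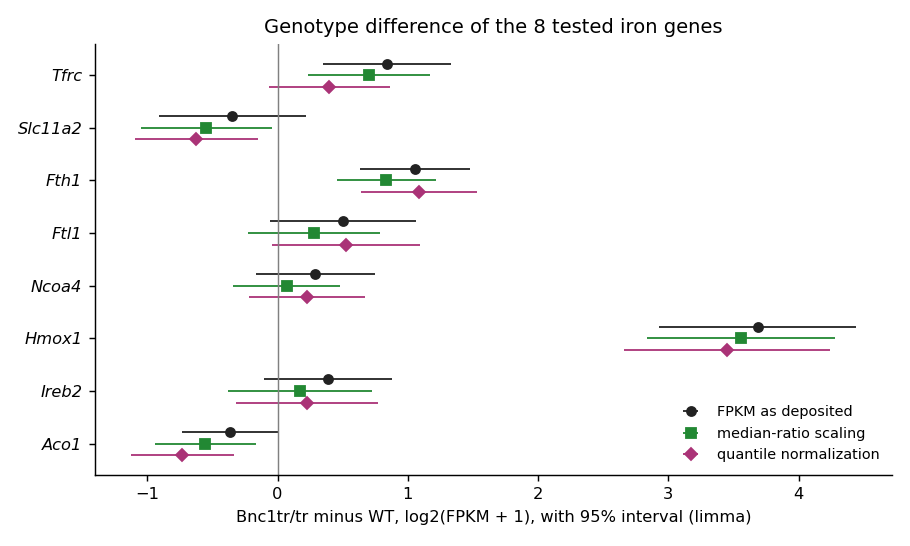
Difference of Bnc1tr/tr minus WT oocytes for the 8 tested iron genes on the log2(FPKM + 1) scale, with 95% intervals from limma, for FPKM as deposited and after median-ratio scaling and quantile normalization. All 3 intervals lie above 0 for Hmox1 and Fth1, that of Tfrc reaches below 0 after quantile normalization, and those of Aco1 and Slc11a2 lie below 0 after both rescalings.

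FPKM allows levels of different genes to be compared per length. In WT oocytes the order by mean was Fth1, Ftl1, Ncoa4, Ireb2, Slc11a2, Aco1, Tfrc and Hmox1, followed by Steap3 and Slc40a1. The ranges of the neighbours Fth1 and Ftl1 overlapped there, and those of the next 5 genes after Ftl1 were apart from each other. In Bnc1tr/tr oocytes Fth1 and Ftl1 no longer overlapped, and Hmox1 stood between Ireb2 and Slc11a2, overlapping the range of Slc11a2. Ferritin message was thus abundant in both genotypes, and messages of the receptor and the exporter were scarce in both.

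Ratios within a library hardly depend on how libraries are scaled, and 3 such ratios were tested by exact permutation of the libraries (two-sided), which for groups of 3 cannot give a p below 0.10. Each is a difference of log2(FPKM + 1). Fth1 over Ftl1 was 0.50, 0.59 and 0.98 in Bnc1tr/tr libraries and 0.19, 0.07 and 0.14 in WT, a difference of 0.55 between group means. This ratio does depend on how reads of Ftl1 were shared out with other genes. Ireb2 over Aco1 was 2.40, 2.72 and 2.60 in Bnc1tr/tr and 1.53, 1.79 and 2.14 in WT, a difference of 0.75. Neither ratio overlapped between the groups, with an exact p of 0.10 for each and 0.10 after Benjamini-Hochberg adjustment over the 3 ratios. Tfrc over Slc40a1 was 1.31, 1.33 and 1.29 in Bnc1tr/tr and 0.99, 0.77 and 1.02 in WT, a difference of 0.39 with the same exact p. Its direction rests on the pseudocount, because Slc40a1 was listed at 0 in WT, and it turned to -0.73 (exact p = 0.20) with a pseudocount of 0.1 FPKM.

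**Figure D3:**
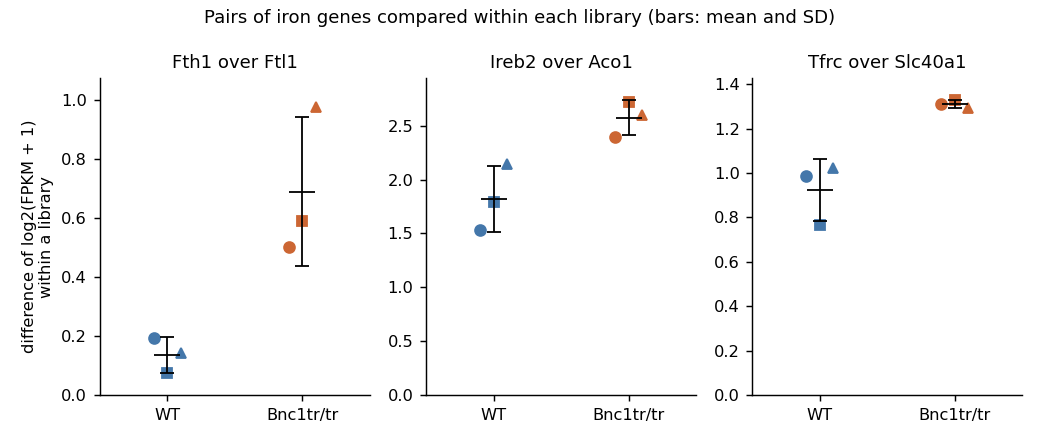
Difference of log2(FPKM + 1) between the 2 genes of a pair within each oocyte library, for Fth1 over Ftl1, Ireb2 over Aco1 and Tfrc over Slc40a1, with 1 point per library and bars for the mean and SD of 3 libraries. The Bnc1tr/tr points lie above the WT points in each panel, and the direction of the last pair depends on the pseudocount of 1 FPKM.

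Hmox1, Fth1 and Slc40a1 are also strongly expressed in macrophages that recycle red cells, so levels of leukocyte and red cell markers are given beside them. All 10 leukocyte markers were listed, with a summed level of 60.5 to 147 FPKM in Bnc1tr/tr and 66.2 to 97.3 FPKM in WT. C1qb was the largest single part of the sum in each library, at 53.09 to 70.65 FPKM in Bnc1tr/tr and 64.81 to 95.27 FPKM in WT, and Lyz2 came next in Bnc1tr/tr library 2. Tyrobp was at 8.42 and 9.80 FPKM and Fcer1g at 15.05 and 11.91 FPKM in Bnc1tr/tr libraries 1 and 2, and both were listed at 0 elsewhere. C1qa was at 1.39, 1.66 and 0.61 FPKM and Adgre1 at 0.09, 0.09 and 0.13 FPKM in the 3 mutant libraries and both at 0 in WT. Of 10 red cell markers 6 were listed, and their sum was 0.93 to 12.3 FPKM in Bnc1tr/tr and 1.5 to 1.84 FPKM in WT. In Bnc1tr/tr library 3, Ptprc, Lyz2, Cd14, Tyrobp, Fcer1g and Hba-a1 were listed at 0. The other leukocyte markers were above 0 there, with C1qb at 58.64, Cd68 at 0.96, C1qa at 0.61, Adgre1 at 0.13 and Csf1r at 0.13 FPKM. Hmox1 in this library was at 16.57, Fth1 at 374.59, Tfrc at 1.99 and Slc40a1 at 0.22 FPKM, each above every WT library. Ftl1 in that library was at 189.66 FPKM, within the WT range, and its difference there was -0.0015 (95% interval -0.65 to 0.65). Granulosa and cumulus markers, 11 of 14 listed, summed to 43.3 to 60.5 FPKM in Bnc1tr/tr and 22.9 to 40.1 FPKM in WT, and the largest part was Cyp19a1, whose groups overlapped. Of the 5 tested, limma called Fshr (2.24, adjusted p = 0.00011) and Kitl (0.68, adjusted p = 0.018) higher. Over all tested genes 24.1% were called higher and 7.68% lower, which is also the background for the theca and endothelial calls below. The WT mean of Fshr, 0.35 FPKM, was under the limit for the test. Inha was at 0.18, 1.81 and 0.09 FPKM in Bnc1tr/tr and at 6.78, 3.45 and 0.04 FPKM in WT. Foxl2 was nearly absent from both groups, at 0 in the mutant libraries and at 0.03, 0 and 0 FPKM in WT. Theca markers, 5 of 6 listed, summed to 5.95 to 7.62 and 0.71 to 4.17 FPKM, and endothelial markers, 6 of 6 listed, to 5.68 to 8.48 and 10.2 to 11.8 FPKM. The sums of each list did not overlap between the groups, but genes within each list went in both directions. A shift of either list as a set was not tested. In the theca list limma called Cyp11a1 higher (1.61, adjusted p = 0.0013), while the mean of Hsd3b1 was 0.033 FPKM in Bnc1tr/tr and 0.843 FPKM in WT. In the endothelial list Pecam1 was called lower (-1.02, adjusted p = 0.0048), while Kdr and Cldn5 were higher in every mutant library. The part of these cells in the iron gene differences was not tested.

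**Figure D4:**
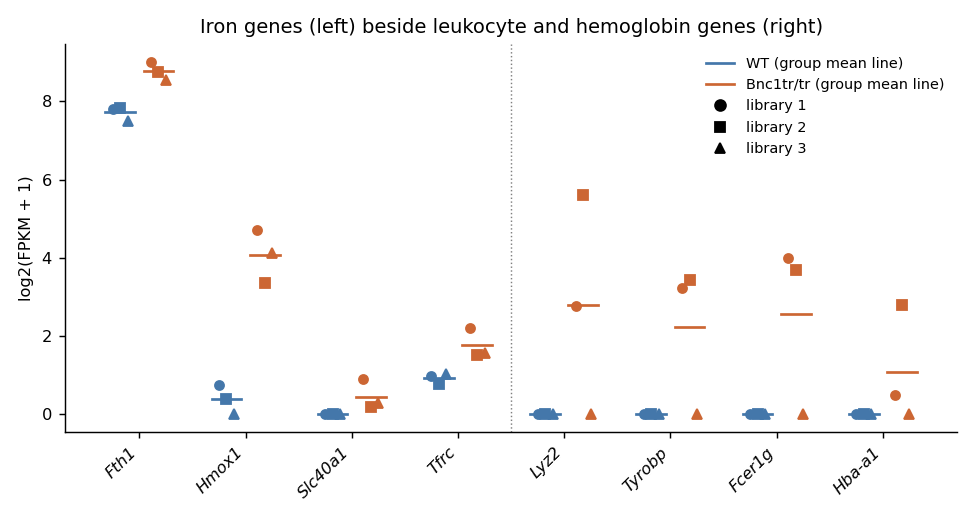
Levels of 4 iron genes (left) and of 4 leukocyte and hemoglobin genes (right) as log2(FPKM + 1), with 1 point per library, the shape giving the library number, the colour the genotype and a line the group mean. Lyz2, Tyrobp, Fcer1g and Hba-a1 are above 0 in Bnc1tr/tr libraries 1 and 2 alone, and Hmox1 is high in all 3 mutant libraries.

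The genes whose level followed Tfrc most closely over the 6 libraries were Nxn (Pearson r = 0.997), Ankfy1 (0.996), Hormad1 (0.995), Zc3h3 (0.995) and Gimap3 (0.993). Each of the 5 was highest in Bnc1tr/tr library 1, as Tfrc was, and lower in WT than in the mutant libraries. Zc3h3, for example, was at 11.59, 7.88 and 8.03 FPKM in Bnc1tr/tr and at 5.03, 4.48 and 5.59 FPKM in WT. The 6 points share their split by genotype, so these values describe the pattern and were not tested.

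Genes of the wider set of iron, heme and iron-sulfur handling were called in both directions, and the balance depended on the scaling. Of 102 names in 9 lists, 91 were listed and 68 tested, of which 9 were called higher and 8 lower in Bnc1tr/tr, 25.0% of those tested against the background of 31.8%. By direction these were 13.2% higher and 11.8% lower, against 24.1% and 7.68% of all tested genes. The shares over all tested genes are also the background for the counts of each list below. The median log2 difference over the 68 was 0.0041, below the 0.15 of all tested genes. The split became 6 higher and 16 lower after upper-quartile scaling (8.82% and 23.5%), where the counts over all genes were 1851 and 1792. It became 7 and 13 (10.3% and 19.1%) after median-ratio scaling, against 18.5% and 14.5% of all genes, and after quantile normalization, against 15.8% and 17.1%. Without Bnc1tr/tr libraries 1 and 2 the calls of Slc39a14 (1.60), Bach1 (1.42) and Cisd3 (1.97) remained, and each other call below was lost. That fit holds 1 mutant library and lost calls over all tested genes as well, so a call lost there is not particular to these genes.

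In the uptake list, 2 of 8 tested genes rose and 1 fell. Steap4, a plasma membrane ferrireductase, rose from 6.63 ± 1.95 to 16.5 ± 2.60 FPKM (SD, n = 3; log2 difference 1.22, limma adjusted p = 0.0033), and was at 1.28 (adjusted p = 0.10) without Bnc1tr/tr libraries 1 and 2. Slc39a14, a zinc transporter that also takes up iron not bound to transferrin, was at 2.25, 3.15 and 2.37 FPKM in Bnc1tr/tr and at 0.16, 0.18 and 0.01 FPKM in WT (1.68, adjusted p = 0.00014). Its WT mean of 0.117 FPKM was under the limit for the test, which it could enter only with higher mutant levels. Hfe, which binds the transferrin receptor at the cell surface, fell in the mutant, with 4.89, 4.14 and 3.12 FPKM against 6.89, 6.91 and 6.84 FPKM in WT (-0.66, adjusted p = 0.022). The Hfe call was lost in 5 of 15 alternatives, among them the fits without Bnc1tr/tr library 2 (adjusted p = 0.054) or 3 (0.078), WT library 1 (0.052) or 2 (0.075), or both Bnc1tr/tr libraries 1 and 2 (-0.94, 0.060). Snx3, a sorting nexin that returns the receptor to the surface, was the most abundant gene of this list and did not pass (-0.36, adjusted p = 0.17), but was called lower after upper-quartile (-0.63, adjusted p = 0.023) and median-ratio scaling (-0.58, adjusted p = 0.034).

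Of the 7 tested iron storage and chaperone genes limma called 0, against 31.8% of all tested genes, with 0 at an unadjusted p under 0.05. The groups overlapped for all 7, while 46.8% of all tested genes did not overlap. Tax1bp1, an autophagy receptor that works with Ncoa4, was at 163 ± 18.3 and 160 ± 23.7 FPKM (SD, n = 3). Among export genes 1 of 2 tested rose. This was Hamp, the hormone hepcidin that removes ferroportin from the membrane, which was at 28.69, 21.94 and 22.84 FPKM in Bnc1tr/tr and at 2.58, 2.12 and 6.37 FPKM in WT (2.54, limma adjusted p = 0.00034, and 2.45 with 0.072 without Bnc1tr/tr libraries 1 and 2). Hamp2 holds 33.7% of its words and was at 9.41, 6.50 and 1.59 FPKM in Bnc1tr/tr and at 0.92, 1.27 and 2.85 FPKM in WT, so the level of Hamp is uncertain. Of 7 tested genes of iron sensing and control, Bach1 alone was called. Bach1, a heme-binding repressor of Hmox1 and of both ferritin genes, rose from 1.46 ± 0.220 to 6.22 ± 0.755 FPKM (SD, n = 3; 1.55, adjusted p = 0.00017). Fbxl5, the iron-sensing subunit that marks IRP2 for degradation, was at 47.6 ± 4.29 and 54.9 ± 16.3 FPKM and did not pass (-0.16, adjusted p = 0.62).

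**Figure D5:**
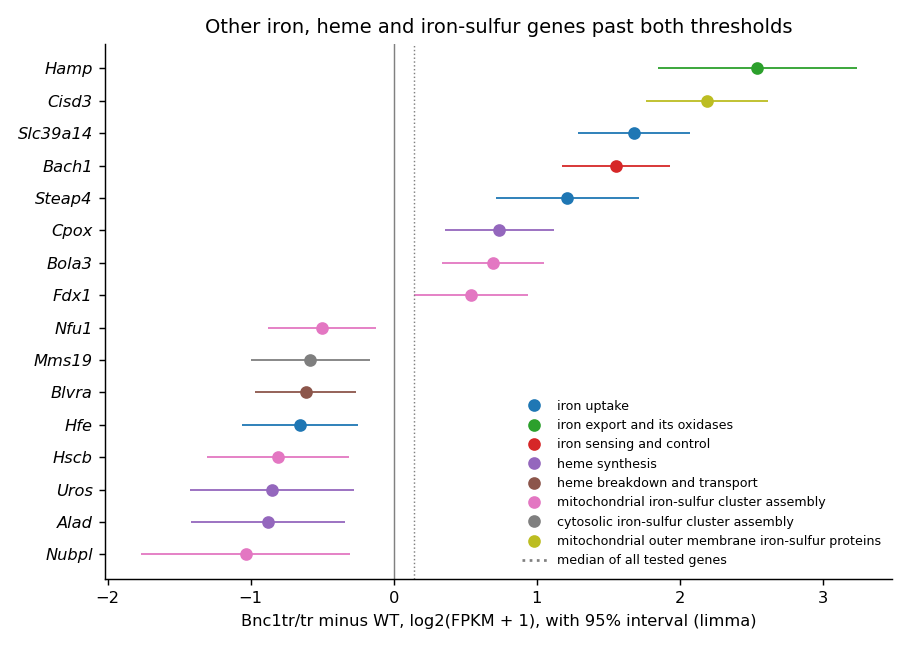
Difference of Bnc1tr/tr minus WT oocytes on the log2(FPKM + 1) scale, with 95% intervals from limma, for 16 called genes of the wider iron lists, coloured by list. The 8 higher genes plotted lie right of the dotted median of all tested genes (0.15), with Hamp and Cisd3 the farthest, and the 8 lower genes lie left of 0.

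Heme synthesis was divided, with 1 gene higher and 2 lower of 11 tested. Alad, which makes porphobilinogen, fell from 28.8 ± 8.07 in WT to 14.9 ± 2.44 FPKM (SD, n = 3; -0.88, limma adjusted p = 0.021). Uros, which closes the ring of uroporphyrinogen, was called lower as well (-0.85, adjusted p = 0.031). The call of Alad was lost in 6 of 15 alternatives, among them leaving out Bnc1tr/tr library 1 or 3 or WT library 1 or 2 (adjusted p 0.062 to 0.081), and both mutant libraries 1 and 2 (-0.92, 0.22). That of Uros was lost in 7 of 15, among them leaving out Bnc1tr/tr library 1 or 2 or WT library 1 or 2 (adjusted p 0.071 to 0.12), and both mutant libraries (-0.66, 0.38). Cpox, a later mitochondrial step, rose from 11.1 ± 0.931 to 19.2 ± 2.53 FPKM (0.74, adjusted p = 0.010), a call lost after upper-quartile scaling (0.48, adjusted p = 0.058), quantile normalization (0.49, 0.054) and without both mutant libraries (0.94, 0.073). Tmem14c, a mitochondrial porphyrin transporter, was among the most abundant iron genes of the oocyte, at 699 ± 43.2 FPKM in Bnc1tr/tr and 697 ± 109 FPKM in WT. Downstream of Hmox1, Blvra, which turns biliverdin into bilirubin, fell from 44.6 ± 1.93 to 28.9 ± 2.17 FPKM (-0.61, adjusted p = 0.016) and was the only called gene of 5 tested in heme breakdown and transport. The call of Blvra was lost without Bnc1tr/tr library 2 (adjusted p = 0.056), WT library 2 (0.071) or both mutant libraries 1 and 2 (-0.59, 0.16).

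Of 17 tested genes of mitochondrial iron-sulfur cluster assembly, 3 were called higher and 3 lower. Bola3, a late-acting assembly factor, rose from 81.2 ± 5.40 to 132 ± 8.69 FPKM (SD, n = 3; 0.69, limma adjusted p = 0.0097), a call lost after upper-quartile (0.42, adjusted p = 0.087) and median-ratio scaling (0.47, 0.058) and without Bnc1tr/tr libraries 1 and 2 (0.66, 0.14). The electron donor Fdx1 was called higher (0.54, adjusted p = 0.044), but lost the call in 11 of 15 alternatives, every single library left out and the 3 rescalings among them, with values from 0.27 to 0.61. The 3′ UTR of Bola3 also held a match to the iron-responsive element letters, at chr6:83358421-83358449 on the + strand. The cochaperone Hscb was called lower (-0.81, adjusted p = 0.021), and not without Bnc1tr/tr library 1 (-0.66, 0.075) or libraries 1 and 2 (-0.71, 0.24). Nfu1 was called lower (-0.50, adjusted p = 0.049), but not in 9 of 15 alternatives, every single library left out among them (adjusted p 0.067 to 0.15). Nubpl was called lower (-1.03, adjusted p = 0.037) with overlapping groups, and lost the call in 7 of 15, among them leaving out Bnc1tr/tr library 1 or 2 or WT library 2 or 3 (adjusted p 0.078 to 0.12), and was at -0.31 (0.58) without both mutant libraries 1 and 2. Ndufab1, the acyl carrier protein of the assembly complex, was at 626 ± 83.1 and 638 ± 105 FPKM (SD, n = 3). In the cytosolic pathway 1 of 8 tested genes was called, Mms19, a targeting factor for DNA repair enzymes, which was called lower (-0.58, adjusted p = 0.040). That call was lost in 6 of 14 alternatives, with each library but WT library 3 left out (adjusted p 0.059 to 0.13) and without both mutant libraries (-0.79, 0.14). Ciao2b, the most abundant there, was at 287 ± 11.8 and 250.0 ± 23.1 FPKM. Of 3 iron-sulfur proteins of the CISD family, which were listed together as outer membrane proteins of the mitochondrion, 1 was called. This was Cisd3, which lies inside the mitochondrion and was at 87.89, 82.50 and 67.18 FPKM in Bnc1tr/tr and at 14.21, 15.88 and 19.72 FPKM in WT, a log2 difference of 2.19 (adjusted p = 5e-05). Cisd1, the most abundant, did not pass, at 473 ± 39.5 and 499 ± 25.8 FPKM (SD, n = 3).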

How the data were processed

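RNA-seq tables of 6 GV oocyte libraries were used. The authors deposited 1 table of FPKM values per library, and the submitters' processing notes name HISAT2 2.0.4, Bowtie2 2.2.5, RSEM 1.2.12 and the genome GRCm38.p6. Which annotation was counted, and whether genes were filtered, is not given in the sources used here. Because FPKM are shares of a library, abundant transcripts move all others, and because the cDNA was amplified without molecular identifiers, fragment estimates cover counting error only. Depth was taken from the spacing of low FPKM values over 809 genes with 1 transcript, and was least sure in WT library 3.

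Of 17577 NCBI Gene IDs, 17470 were in the RefSeq table (GRCm38.p6), which restored 25 symbols that had become dates. Coordinates, UTRs and 31-base words came from GENCODE M21 (GRCm38). Groups followed the genotype label. Genes whose mean reached 1 FPKM were compared by limma 3.58.1 (R 4.3.3) on log2(FPKM + 1), with Benjamini-Hochberg adjustment over 10560 genes, and called at adjusted p under 0.05 and absolute log2 fold change over 0.5, the thresholds of the study. The fit was tested on simulated data. Ratios were compared by exact permutation (scipy 1.17.1), and figures were drawn with matplotlib 3.10.9.

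Named genes were the 10 members, the called genes and the most abundant tested gene of each wider list, and the 5 genes most correlated with Tfrc. Of the called genes of the wider lists, 1 is counted but not reported here. Hamp2 and the marker genes quoted were named after their values were seen. The members and lists were chosen with earlier results of these data known. Alternatives were another pseudocount, other filters, scalings, variances and thresholds, the replicate number as a block, and leaving out each library. The fit without Bnc1tr/tr libraries 1 and 2 was added after seeing the data.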

Additional observations from a re-analysis of the deposited data

How the results depend on the processing

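Of 119 alternative values of the members' differences, 108 kept their direction and their side of the thresholds, 4 lost and 6 gained a call, and 1 changed sign. The 3 member calls became 1 without Bnc1tr/tr libraries 1 and 2, and 2 to 4 with each replicate left out. Of the 357 values of the other named iron genes, 275 kept both, 64 lost and 2 gained a call, and 16 changed sign. The 17 calls of the wider lists became 7 at an absolute log2 fold change over 1, 3 without both libraries, and 9 to 18 with each replicate left out, with 9 without WT replicate 2 and 10 without Bnc1tr/tr replicate 2. The 3358 calls over all genes became 2046 at a minimum mean of 5 FPKM, 1677 at a log2 fold change over 1, 880 without both libraries, and 2323 to 3539 with each replicate left out. As deposited, 2547 genes were called higher and 811 lower, against 1851 and 1792 after upper-quartile scaling, 1954 and 1534 after median-ratio scaling, and 1670 and 1811 after quantile normalization.

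Signs that changed belonged to differences that were not called. Without both libraries these were Ftl1 (-0.0015), Tmem14c (-0.081) and Ndufab1 (0.028). Upper-quartile and median-ratio scaling gave -0.24 and -0.19 for Tax1bp1, -0.26 and -0.21 for Tmem14c, and -0.075 and -0.020 for Ciao2b, and quantile normalization gave 0.035 for Ndufab1. Leaving out each replicate gave -0.096 to 0.11 for Tax1bp1, -0.35 to 0.057 for Fbxl5, -0.11 to 0.11 for Tmem14c and -0.11 to 0.11 for Ndufab1. Tfrc over Slc40a1 was -0.73 with a pseudocount of 0.1. The causes were not tested.

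Deviations of same-numbered libraries of the groups correlated at 0.28, -0.03 and 0.12, and those of differently numbered libraries at -0.25 to 0.16. So few values cannot decide whether the replicate numbers pair the libraries. With the replicate block there were 3 member calls, 19 in the wider lists and 3733 over all genes. It was not fitted for the ratios. Slc40a1 and Steap3 entered the fit without a filter only, and Tfrc left it at a minimum mean of 5 FPKM. Depth limits Slc40a1 and Steap3, whose highest values rest on an estimated 35.5 and 3.97 fragments.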
